A study of Copadichromis virginalis x Mchenga conophoros with 6 samples.

Results

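The granins and the enzymes that process prohormones were followed in the brains of hybrid cichlids, allele by allele. The set holds 9 genes, taken by symbol: the granins chga, chgb, scg2 and scg3, the convertase chaperone scg5, the convertases pcsk1 and pcsk2, the carboxypeptidase cpe and the vesicle membrane protein ptprn. All 9 were listed in every library, out of 6848 genes listed in all libraries and 13212 listed in any. RNA of whole brains came from male F1 hybrids between Mchenga conophoros, whose males build sand castles as bowers, and Copadichromis virginalis, whose males dig pits, so each brain carried 1 parental copy of every gene from each species. Reads over sites that differ between the parents had been assigned to an allele and counted per gene. The groups were labelled pit digging (2 libraries), castle building (2 libraries) and isolated (2 libraries). The behavioural paradigm the hybrids had been run through is the only difference between groups that the labels name. The labels state neither age nor brood nor which species was the mother, nor whether the libraries of a group came from separate animals, so p-values measure the spread between these libraries, which may be technical.

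Neurons and endocrine cells store peptide hormones in dense-core vesicles, which bud from the trans-Golgi network and release their content when calcium enters the cell. Granins are acidic proteins that aggregate in that compartment and take part in packing the cargo, and several are themselves cut into peptides. The convertases encoded by pcsk1 and pcsk2 cut prohormones at pairs of basic residues, carboxypeptidase E trims the basic residues left at the cut end, the scg5 protein (7B2) keeps immature convertase 2 from acting too early, and ptprn encodes IA-2, a phosphatase-like protein without catalytic activity in the vesicle membrane. These roles are known mainly from mammals.

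The 6 libraries held 2155680 to 3294397 allele-assigned counts. Summed over both alleles, a member had between 36 counts (ptprn, castle building library 1) and 4449 counts (cpe, castle building library 2). Differences between the castle building libraries were smaller than sampling noise over their genes (chi-square per degree of freedom 0.495, against 27.3 for pit digging and 20.4 for isolated) and they entered as 1 sample, their mean, so that castle building has n = 1 and no replicate check of its own. A gene appears in a table only with at least 6 counts on each allele, so an absent gene is not a count of 0. The lowest summed count of a listed gene was 12 in each pit digging and isolated library but 21 in both castle building libraries. Absence from castle building therefore does not follow the same limit as absence from the other libraries. Among markers of neurons, the 10 of 17 listed in all libraries summed to 4577 to 5899 CPM in pit digging and isolated samples. In castle building they summed to 4462 CPM. CPM is the count of both alleles relative to the sample's total over the 6844 genes tested, after TMM scaling. The 3 of 12 myelin markers listed in all libraries summed to 5448 to 6721 CPM in pit digging and isolated samples and to 976 CPM in castle building. Most of that sum was mpz (5339 to 6587 CPM, and 844 CPM in castle building), while sox10 (93.7 CPM) and mbp (38.8 CPM) in castle building lay within the range of the other samples. The pituitary hormone genes pomc and cga and the pituitary transcription factor gene pou1f1 were listed in pit digging replicate 2 and isolated replicate 2 only, pomc with 919 and 1841 counts and cga with 720 and 1009. The 6 of 13 radial glia and astroglia markers listed in all libraries summed to 6291 CPM in castle building. In pit digging and isolated samples they summed to 3697 to 6064 CPM. Castle building was highest for slc1a2 (4245 CPM against 1365 to 2545 CPM) and slc1a3, lowest for aldoc and ndrg2, and within the range for s100b and gja1. No erythrocyte marker was listed in all libraries.

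The first question was whether the parental alleles contributed equally. Averaged over the paradigms with equal weight (called over all samples below), chgb, scg3 and chga leaned to the C. virginalis allele and ptprn leaned to the M. conophoros allele, while scg2, scg5, pcsk1, pcsk2 and cpe did not pass. That is 4 of 9 members past an adjusted p of 0.05 (edgeR quasi-likelihood, Benjamini-Hochberg over all genes), where 8.21% of the 6844 genes tested passed, 7.74% towards C. virginalis and 0.468% towards M. conophoros. The median log2 ratio was 0.01 for the members and 0.05 for all genes tested, and its median size 0.26 and 0.13. Ordered by the mean C. virginalis share over the 5 samples, chgb stood at 71.7% ± 17.6, scg3 at 67.0% ± 10.8, chga at 56.9% ± 5.04, pcsk2 at 50.3% ± 1.63, scg2 at 49.97% ± 2.90, cpe at 49.7% ± 0.732, scg5 at 47.5% ± 3.11, pcsk1 at 45.1% ± 2.57 and ptprn at 41.8% ± 8.65 (SD, n = 5). The ranges of neighbours in this order overlapped in every case. In the libraries as a whole, the C. virginalis allele held 52.2 to 53.9% of counts.

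**Figure D1:**
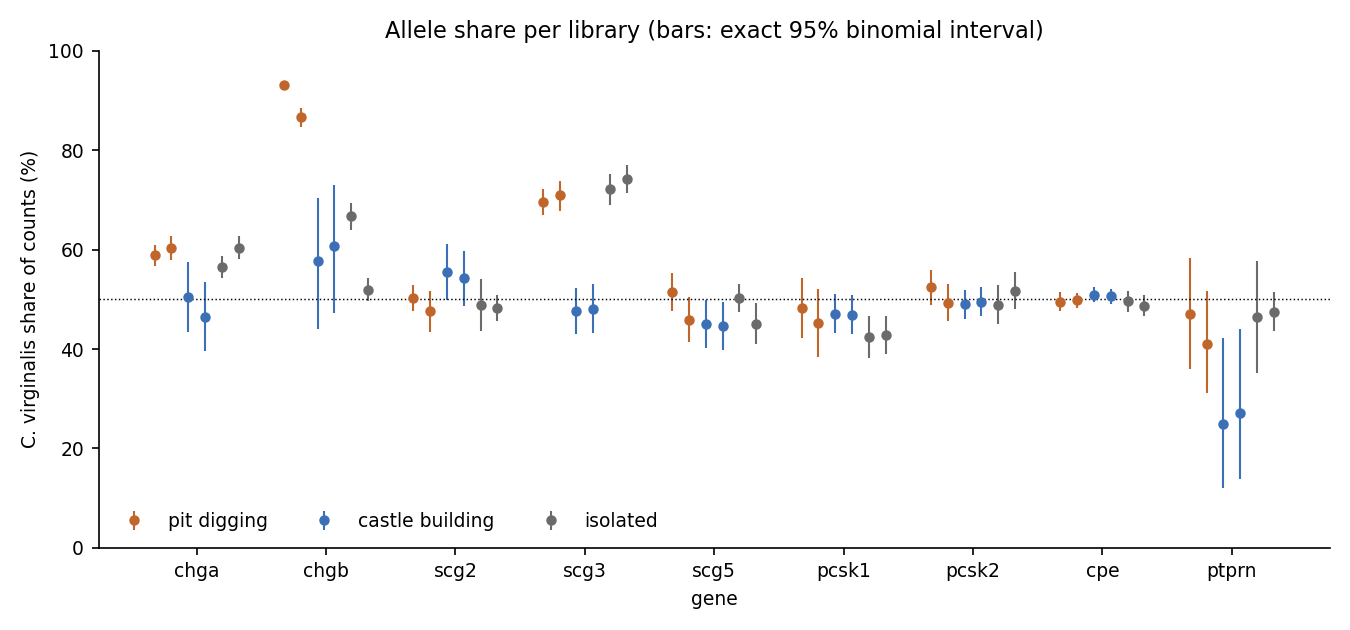
Share of counts on the C. virginalis allele (vertical axis, %) for each of the 9 genes (horizontal axis) in each of the 6 libraries, replicate 1 left of replicate 2, with exact 95% binomial intervals that cover counting error only. The pit digging points of chgb lie at 93.2 and 86.6%, the castle building points of scg3 lie below 50% with the other 4 libraries near 70%, and the 6 points of cpe lie between 48.7 and 50.9%.

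Chromogranin B had the most uneven alleles of the set in pit digging and on average over the paradigms, whereas scg3 was more uneven in isolation and ptprn in castle building. The C. virginalis allele held 93.2% of counts in pit digging replicate 1 (4083 of 4381), 86.6% in replicate 2 (1154 of 1332), 66.7% in isolated replicate 1 (835 of 1252), 52.0% in isolated replicate 2 (902 of 1736) and 60.0% in the castle building sample (exact 95% binomial interval 46.5 to 72.4%, on 60 counts). Both pit digging libraries were above all others, and neither pair of replicates agreed within counting error: the intervals were 92.4 to 93.9% and 84.7 to 88.4% in pit digging, and 64.0 to 69.3% and 49.6 to 54.3% in isolation. In both pairs the library with the lower share, replicate 2, was also the one in which pomc, cga and pou1f1 were listed, and the part of pituitary RNA in the gap was not tested. In pit digging the allelic log2 ratio was 3.26 ± 0.29 (SE; 9.58-fold; edgeR adjusted p = 0.000931), in isolation 0.55 ± 0.27 (adjusted p = 0.432) and over all samples 1.46 ± 0.25 (adjusted p = 0.0126). The last of these did not pass without isolated replicate 1 (adjusted p = 0.0529).

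The allele-specific levels of chgb moved in different ways. The M. conophoros allele stood at 104 and 94.8 CPM in pit digging replicates 1 and 2, at 219 and 408 CPM in isolated replicates 1 and 2 and at 11.6 CPM in castle building. For the C. virginalis allele the same samples gave 1429 and 614 CPM, 439 and 442 CPM, and 17.5 CPM. With 2 samples on each side, pit digging was thus lower than isolation on the M. conophoros allele and higher on the C. virginalis allele. Neither difference passed by edgeR: fitted on either allele alone, 0 of the 6844 genes tested did for pit digging minus isolation. CPM of 1 allele are scaled by the summed counts of both alleles over the genes tested in the sample. Levels can be set side by side within a gene only, because the number of informative sites differs between genes.

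Secretogranin III, which in mammals binds chromogranin A and the vesicle membrane, leaned to C. virginalis in pit digging and isolation and was near equality in castle building. Shares on the C. virginalis allele were 69.6 and 70.9% in pit digging replicates 1 and 2, 72.2 and 74.3% in isolated replicates 1 and 2, and 47.8% in castle building (exact interval 43.1 to 52.6%, on 441 counts). Intervals of the pit digging and isolated libraries overlapped one another, and the castle building interval lay apart from all 4. The log2 ratio was 1.24 ± 0.10 in pit digging (SE; edgeR adjusted p = 0.000644), 1.45 ± 0.10 in isolation (adjusted p = 0.00033) and -0.12 ± 0.15 in castle building (adjusted p = 0.928). Over all samples it was 0.86 ± 0.07 (adjusted p = 0.000373), and this call held under every alternative computed (highest adjusted p = 0.00801).

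Chromogranin A leaned less, and again not in castle building. Its share was 58.9 and 60.3% in pit digging replicates 1 and 2, 56.5 and 60.4% in isolated replicates 1 and 2, and 48.3% in castle building (exact interval 41.4 to 55.3%, on 209 counts). The 4 libraries outside castle building lay above it and their intervals overlapped. The log2 ratio was 0.56 ± 0.09 in pit digging (SE; edgeR adjusted p = 0.0134), 0.49 ± 0.09 in isolation (adjusted p = 0.0305) and 0.32 ± 0.07 over all samples (adjusted p = 0.0341). The call over all samples was lost when pit digging replicate 2 (adjusted p = 0.0513), isolated replicate 1 (0.0642) or isolated replicate 2 (0.123) was left out, with DESeq2 (0.806), with TMM scaling between alleles (0.112), with missing genes counted as 0 (0.0524) and with the second castle building library alone (0.0531). Leaving out either isolated library ended the isolated call (adjusted p = 0.149 without replicate 1 and 0.358 without replicate 2), and leaving out either pit digging library ended the pit digging call (0.0684 and 0.0681). With DESeq2 neither passed (0.544 in pit digging and 0.996 in isolation), and with TMM scaling between alleles the isolated call was lost (0.0655).

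Secretogranin II, the precursor of the peptide secretoneurin, had near-equal alleles in every paradigm. Its C. virginalis share was 50.2 and 47.6% in pit digging replicates 1 and 2, 48.9 and 48.3% in isolated replicates 1 and 2, and 54.9% in castle building, whose exact interval (49.2 to 60.4%) overlapped the others. Its summed level varied between replicates at near-constant shares, with 730 CPM in isolated replicate 2 and 195 CPM in isolated replicate 1.

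None of the processing enzymes passed for the allelic ratio, although pcsk1 lay on the M. conophoros side throughout. For cpe, the most deeply counted member, the shares ran from 48.7% (isolated replicate 2) to 50.8% (castle building sample), with 2147 to 4444 counts per sample. For pcsk2 they ran from 48.9 to 52.4%, and for its chaperone scg5 from 44.8 to 51.4%. The other convertase, pcsk1, leaned towards M. conophoros in all 5 samples, with 48.2 and 45.2% in pit digging, 42.3 and 42.8% in isolation and 47.1% in castle building. The ratio of pcsk1 did not pass over all samples (log2 ratio -0.26 ± 0.08 SE, edgeR adjusted p = 0.0917) or in isolation (-0.43 ± 0.11, adjusted p = 0.0897). With castle building entered as 2 libraries it passed in both (adjusted p = 0.00985 and 0.0184), likewise with the replicate block added (0.0167 and 0.0303), and with TMM scaling between alleles it passed over all samples (0.039) but not in isolation (0.055). With DESeq2 it passed in neither.

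The vesicle membrane gene ptprn was the member called towards M. conophoros, and it is the one counted least. Its C. virginalis share was 47.0 and 41.1% in pit digging replicates 1 and 2, 46.3 and 47.5% in isolated replicates 1 and 2, and 27.0% in castle building (exact interval 13.8 to 44.1%, on 37 counts). All 5 samples lay below 50%, and castle building was lowest. The exact intervals of the pit digging and isolated libraries all reached above 50%. The log2 ratio over all samples was -0.65 ± 0.16 (SE; edgeR adjusted p = 0.0486). Without castle building it was -0.26 (adjusted p = 0.272). The call was also lost without pit digging replicate 1 (0.0515) or 2 (0.0964), without isolated replicate 1 (0.119) or 2 (0.157), with missing genes counted as 0 (0.0645) and with DESeq2 (0.344).

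Within paradigms, 3 of 9 members passed in pit digging (chgb, scg3 and chga, all towards C. virginalis), against 6.33% of all genes in that direction. In isolation scg3 and chga passed, 2 of 9 towards C. virginalis, against 4.16%. In the castle building sample 0 of 9 passed by edgeR, against 1.71% of all genes. At an unadjusted p under 0.05 there was 1, ptprn (log2 ratio -1.42 ± 0.40 SE, adjusted p = 0.229), where 661 of the 6844 genes tested reached that level. DESeq2 gave 0 of 9 past the threshold, against 0.906% of all genes.

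The second question was whether the allelic ratio itself differed between paradigms. For scg3 the C. virginalis share was lower in castle building than in isolation, by -1.58 ± 0.18 on the log2 scale (SE; edgeR interaction, adjusted p = 0.0324), and it was the only member of the 9 to pass, where 0.102% of all genes did in that direction. The castle building value rests on 1 sample, and the call was lost without isolated replicate 1 (-1.65, adjusted p = 0.171) or replicate 2 (-1.503, adjusted p = 0.162), with DESeq2 (adjusted p = 0.208) and with missing genes counted as 0 (0.0613). Against pit digging the difference of scg3 was of like size but did not pass (1.36 ± 0.18 higher in pit digging, adjusted p = 0.051). The castle building sample is shared by both contrasts, so they are not independent.

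Between pit digging and castle building, 0 of 9 members passed by edgeR and 0 by DESeq2, against 0.161% of all genes by edgeR and 0.219% by DESeq2. At an unadjusted p under 0.05 there were 3: scg3 (above), chgb (2.68 ± 0.74, SE, adjusted p = 0.276) and chga (0.66 ± 0.19, adjusted p = 0.302). Of the 6844 genes tested, 626 reached that level in this contrast. Between pit digging and isolation, 0 members and 0% of all 6844 genes passed by edgeR, with 387 genes at an unadjusted p under 0.05. Among members that was chgb, 2.71 ± 0.39 higher in pit digging on the log2 scale (SE; adjusted p = 0.172). Its shares were 93.2 and 86.6% in pit digging and 66.7 and 52.0% in isolation. By DESeq2 chgb passed in this contrast (2.69, adjusted p = 0.00219), the 1 gene of the whole table that did. By edgeR it passed without pit digging replicate 2 (3.23, adjusted p = 0.0176) and not without pit digging replicate 1 (2.15, adjusted p = 0.232), isolated replicate 1 (3.15, 0.536) or isolated replicate 2 (2.26, 0.607).

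The third question was whether the summed level of both alleles differed. In castle building chgb and chga fell against both other paradigms by edgeR, and no other member passed. Both contrasts use the same single castle building sample, and the spread in the test comes from the pit digging and isolated pairs alone. The level of chgb was 1533.5 and 709 CPM in pit digging replicates 1 and 2, 659 and 850 CPM in isolated replicates 1 and 2, and 29.1 CPM in castle building, where the deposited libraries held 59 and 61 counts. The log2 difference was 5.26 ± 0.71 for pit digging minus castle building (SE; 38.4-fold; edgeR adjusted p = 0.0415) and -4.69 ± 0.69 for castle building minus isolation (25.9-fold; adjusted p = 0.0414). For chga the levels were 753 and 859 CPM in pit digging, 981 and 898 CPM in isolation and 101 CPM in castle building. Its log2 differences were 2.99 ± 0.27 (7.94-fold; adjusted p = 0.0408) and -3.21 ± 0.28 (9.25-fold; adjusted p = 0.0359). In a bulk sample, fewer cells of a type and less RNA per cell cannot be told apart.

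These were 2 of 9 members in each contrast, against 3.27% of all genes lower in castle building than in pit digging and 4.28% lower in castle building than in isolation. The median log2 difference of the members was 1.11 and -1.18, and that of all genes 0.05 and -0.05. When any 1 of the pit digging or isolated libraries was left out, both contrasts lost the calls of chga and chgb and those of every other gene. That loss is thus not particular to these genes, and such fits leave 1 residual degree of freedom. The log2 differences of both genes stayed between 2.87 and 5.70 in the first contrast and between -4.86 and -3.14 in the second. With DESeq2 both genes passed in both contrasts, where 12.5% (pit digging minus castle building) and 13.6% (castle building minus isolation) of all genes did in either direction. The myelin marker mpz (log2 difference -2.69 ± 0.26 against isolation) and the neuronal genes stmn2 (-3.07 ± 0.28), nefm (-2.55 ± 0.28) and syn2 (-2.60 ± 0.29) also fell in castle building (adjusted p = 0.0359 for each), which is 1 of 3 myelin and 3 of 10 neuronal markers tested. The neuronal markers did not move together: 4 of the 10 had positive differences against isolation, elavl3 (1.22 ± 0.32, adjusted p = 0.0921), elavl4 (1.42 ± 0.39, 0.1004), eno2 (0.78 ± 0.34, 0.2097) and snap25 (0.52 ± 0.56, 0.573), none of which passed. Their part in the fall of the granins was not tested.

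**Figure D2:**
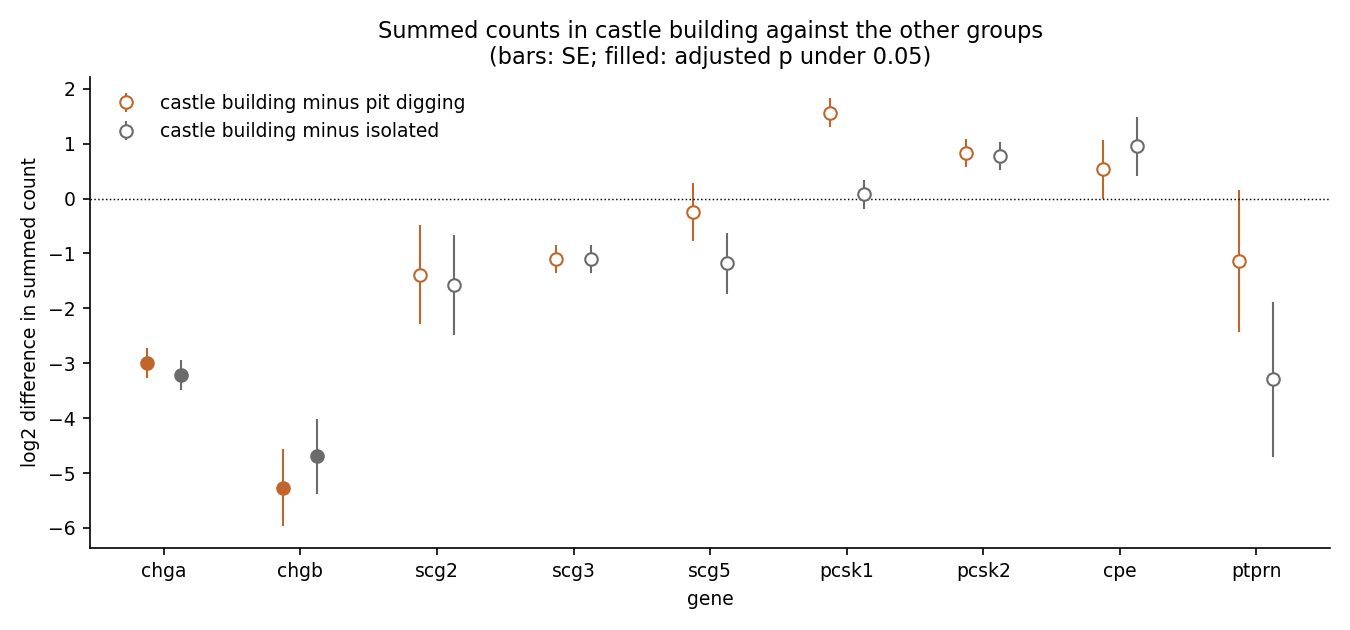
Log2 difference in summed count (vertical axis) between castle building and pit digging and between castle building and isolated for each of the 9 genes (horizontal axis), with SE. Filled points passed an adjusted p under 0.05. The points of chga lie near -3 and those of chgb near -5, and scg3 lies near -1 in both contrasts. Both points of pcsk1, pcsk2 and cpe lie above 0, that of pcsk1 against isolated just above it (0.07). Against isolated, ptprn lies at -3.29 with a wide SE (1.41) and did not pass.

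The level of scg3 was 433 and 489 CPM in pit digging, 438 and 485 CPM in isolation and 214 CPM in castle building, below all 4 others. The log2 difference was 1.11 ± 0.25 for pit digging minus castle building (edgeR adjusted p = 0.0769) and -1.11 ± 0.25 for castle building minus isolation (adjusted p = 0.0757), so neither passed. Split by allele, the M. conophoros allele of scg3 gave 132 and 142 CPM in pit digging, 122 and 125 CPM in isolation and 112 CPM in castle building. The C. virginalis allele gave 301 and 347 CPM, 316 and 360 CPM, and 102 CPM. Fitted on the C. virginalis counts alone, castle building minus isolation was -1.70 ± 0.30 (adjusted p = 0.0514), and on the M. conophoros counts alone -0.17 ± 0.25 (adjusted p = 0.696). For pit digging minus castle building these were 1.62 ± 0.30 (adjusted p = 0.0599) and 0.33 ± 0.25 (adjusted p = 0.4503).

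**Figure D3:**
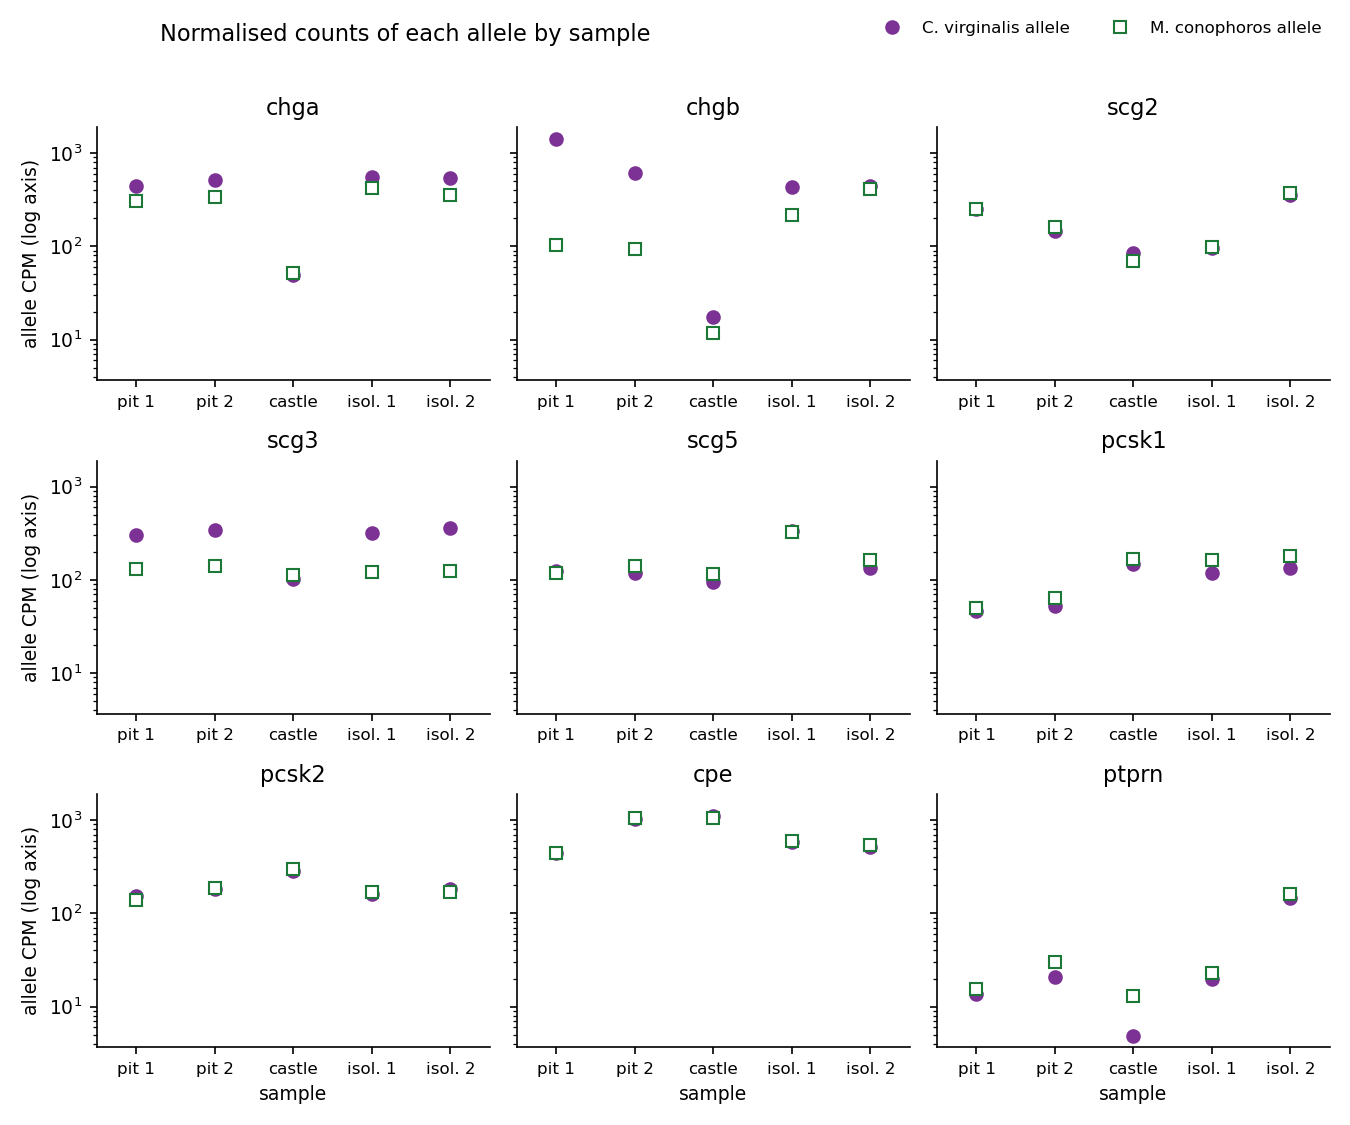
CPM of each allele (vertical log axis) in the 5 samples (horizontal axis) for each of the 9 genes. Filled circles are the C. virginalis allele and open squares the M. conophoros allele. Both alleles are lowest in castle building for chga, chgb, scg2, scg3, scg5 and ptprn. The margin is small on the M. conophoros allele of scg5 (116 CPM against 118 in pit digging replicate 1). For scg3 the C. virginalis allele stands at 102 CPM in castle building, with the M. conophoros allele at 112 to 142 CPM throughout. The alleles of cpe, pcsk2 and scg2 lie on or near each other.

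None of the processing enzymes passed in a summed contrast by edgeR. The level of pcsk2 was 290 and 367 CPM in pit digging, 334 and 349 CPM in isolation and 582 CPM in castle building, the highest sample, but neither contrast passed (adjusted p = 0.123 and 0.135). For pcsk1 it was 95.9 and 117 CPM in pit digging, 281 and 315 CPM in isolation and 314 CPM in castle building, so that pit digging lay below both. The log2 difference of pcsk1 was -1.56 ± 0.26 for pit digging minus castle building (SE; edgeR adjusted p = 0.0533) and -1.49 ± 0.23 for pit digging minus isolation (adjusted p = 0.206). Both passed with DESeq2 (-1.61, adjusted p = 0.0195, and -1.49, adjusted p = 0.0275). Levels of cpe were 890 and 2088 CPM in pit digging, 1186 and 1051 CPM in isolation and 2157 CPM in castle building. Castle building was the highest sample, just above pit digging replicate 2, and the pit digging and isolated samples overlapped.

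The replicates of ptprn, scg5 and scg2 lay far apart in isolation. The level of ptprn was 29.1 and 50.6 CPM in pit digging, 43.1 CPM in isolated replicate 1, 309 CPM in isolated replicate 2 and 18.0 CPM in castle building, so 1 isolated library was far above the rest. That library was also the one with the most counts of pomc and cga, and the part of pituitary RNA in the value was not tested. For scg5 isolated replicate 1 was the high sample, with 660 CPM against 295 in replicate 2, 243 and 259 in pit digging and 211 in castle building. For scg2 the levels were 505 and 306 CPM in pit digging and 155 CPM in castle building, with isolated replicates on either side. None of the 3 passed in any summed contrast by edgeR, and with DESeq2 ptprn passed for castle building minus isolation (-3.25, adjusted p = 0.00889). Between pit digging and isolation, 0 of 9 members and 0% of all genes passed for summed counts by edgeR. At an unadjusted p under 0.05 there were 1 member (pcsk1) and 676 genes, and by DESeq2 1 member passed (pcsk1), against 1.87% of all genes.

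Other genes of the pathway were followed by list for the allelic ratio. Over all samples 8.21% of the 6844 genes tested passed, and 1308 had an unadjusted p under 0.05. Among further granins, convertases and peptide-modifying enzymes 0 of 7 tested passed over all samples (1 at an unadjusted p under 0.05, pam), and among 4 peptide precursors (penk, tac1, adcyap1 and apln) 0 passed (2 at an unadjusted p under 0.05). Among 23 genes of vesicle biogenesis, priming and release, 4 passed towards C. virginalis and 0 towards M. conophoros over all samples, shares of all genes being 7.74% and 0.468%. The largest of these ratios was that of ptprn2, the paralogue of ptprn that encodes IA-2 beta. Its C. virginalis share was 70.3 and 73.4% in pit digging, 72.1 and 73.1% in isolation and 58.6% in castle building (log2 ratio over all samples 1.08 ± 0.08 SE, edgeR adjusted p = 0.000247), and thus ptprn2 and ptprn were called in opposite directions. The opposite call of ptprn rests on few counts and was lost without castle building, as given above. The small GTPase gene rab2a stood at 73.7 and 71.3%, 67.0 and 64.1%, and 45.0% (0.68 ± 0.09, adjusted p = 0.00293). The priming factor gene cadps (CAPS) stood at 58.2% ± 6.25 and the vesicle GTPase gene rab3c at 57.4% ± 1.20 (SD, n = 5). In pit digging 3 of the 23 passed (ptprn2, rab2a and cadps), all towards C. virginalis, against 6.33% of all genes in that direction. In isolation 2 did (ptprn2 and rab2a), again towards C. virginalis, against 4.16%. In castle building 0 passed, against 1.71% of all genes in either direction. Unadjusted p-values under 0.05 were found there for 3 of the 23 and for 661 of the 6844 genes tested. No pathway gene passed in a difference of allelic ratio between paradigms.

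For summed counts, rab2a fell in castle building against both paradigms (77.7 CPM against 304 to 352 CPM), and rabl6 rose there against isolation (82.5 CPM against 13.7 and 14.2, a direction taken by 2.44% of all genes). The remaining pathway genes did not pass in either contrast. The amidating enzyme gene pam had shares of 76.3 and 52.2% in pit digging and 77.1 and 61.3% in isolation, so its replicates lay far apart in both paradigms. Fish genomes hold duplicate copies of many genes, and reads common to such copies may have been divided between them in counting, so values of the granins, ptprn and ptprn2 are uncertain to that extent.

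The patterns of chgb and scg3 over the samples were set beside those of 3555 genes with a symbol and a mean of at least 50 counts, by the Euclidean distance of the log2 allelic ratio over 5 samples. Among the genes nearest to scg3 were stmn2 (distance 0.595, log2 units), a neuronal stathmin, and the complexin gene cplx3 (0.644). In castle building stmn2 had a share of 44.0% and cplx3 one of 49.3%, against 63.0 to 80.4% in the other samples. Nearest to chgb were the splicing-associated gene luc7l3 (distance 1.11), the calmodulin gene calm3 (1.49) and the ubiquitin ligase gene mgrn1 (1.595). Their shares were 81.8 to 90.6% in pit digging and 48.0 to 70.0% in isolation. In castle building luc7l3 stood at 46.8%, calm3 at 66.4% and mgrn1 at 40.9%, with chgb at 60.0%. All these genes were picked by the same ratios. The distances from chgb are larger than those from scg3, and 5 samples give few points to compare.

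**Figure D4:**
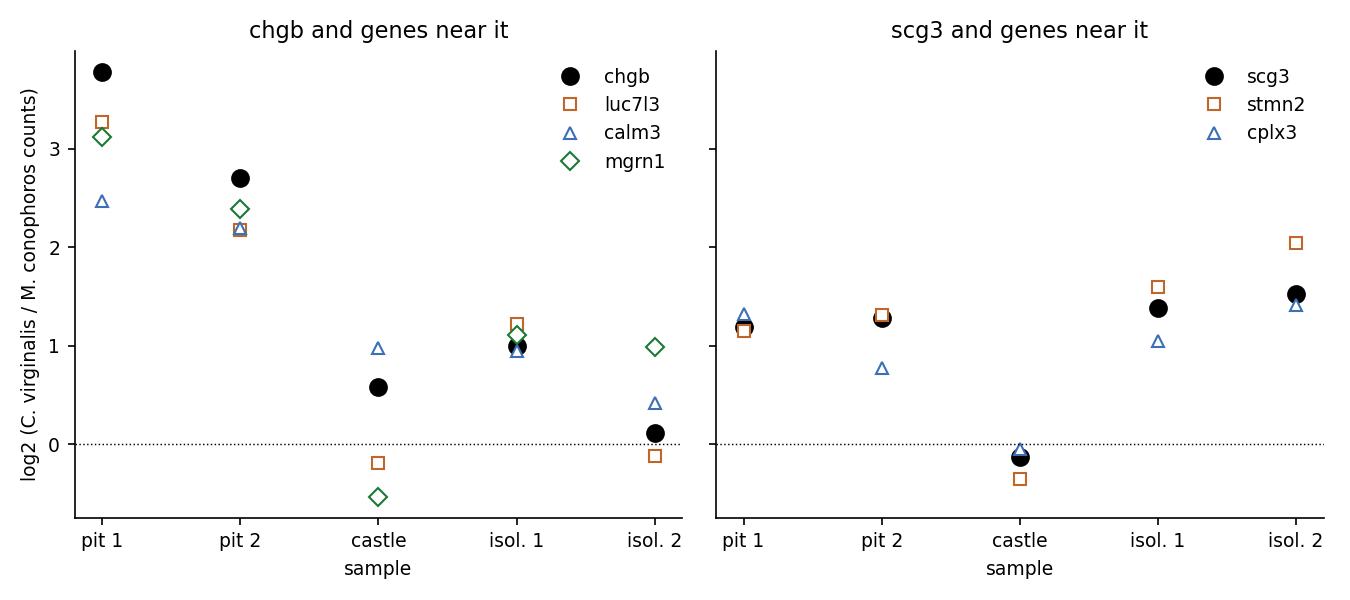
Log2 ratio of C. virginalis to M. conophoros counts (vertical axis) in the 5 samples (horizontal axis) for chgb (left) and scg3 (right), black circles, with the named genes of like pattern. For scg3 and the genes beside it every castle building point lies below 0 and every other point above it, and for chgb the pit digging points are the highest.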

How the data were processed

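RNA from whole brains was prepared with Trizol and a standard Illumina protocol, per the labels, and the submitters' processing notes list STAR 2.4. For each of 6 libraries the authors deposited whole-number counts per gene and allele, with no normalization, and the log2 ratio of both alleles, which equals that of the counts to within 5.33e-15. The labels and headers name no build, annotation, informative sites, allele counter or strand. No genome, annotation or sequence was used, so genes carry no positions.

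The 9 members and all gene lists were chosen with earlier results of these data known. Genes listed in all libraries with a mean total of at least 20 were tested (6844). The quasi-likelihood fits of edgeR 4.0.16 (R 4.3.3) took allele counts with 1 intercept for each sample and 1 allele coefficient for each paradigm, and sums of both alleles with TMM normalization and paradigm. Castle building was the rounded mean of its libraries. Each fit had 5 samples and 2 residual degrees of freedom. P-values were Benjamini-Hochberg adjusted over all genes tested (threshold 0.05), and the SE is the size of the log2 value over the square root of F. The procedure was tested on simulated data. Exact Clopper-Pearson 95% intervals cover counting error only. All members were named. From the pathway lists, up to 4 genes per contrast with the smallest p were named, and genes given beyond these (pam, the tested peptide precursors and marker genes) were chosen after their values were seen. Some genes that these rules pick are not reported here. Alternatives were DESeq2 1.42.0, other filters and scalings, single alleles, other treatments of castle building, a replicate block and each library left out.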

Additional observations from a re-analysis of the deposited data

Results flagged for a closer look

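The allelic ratio of scg3 differed between castle building and isolation by the test of the difference itself: -1.58 on the log2 scale for castle building minus isolation (edgeR interaction, adjusted p = 0.0324, range over the alternatives 0.00329 to 0.208). Its C. virginalis share was 47.8% in the castle building sample against 72.2 and 74.3% in the isolated libraries. Over all alternatives the difference stayed between -1.65 and -1.503. Castle building is a single sample.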

How the results depend on the processing

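A total of 29 tests of a member, those with an unadjusted p under 0.05, were followed through 410 alternative fits. Direction and side of the threshold were kept in 334, a call was lost in 43 and gained in 33, and 0 reversed. The larger moves in the count of members called were as follows. Smaller ones are left out, such as the gains of pcsk1 and ptprn with DESeq2 in sums that involve castle building. Over all samples 4 became 2 with DESeq2 (3.87% of all genes) and 2 with missing genes as 0 (4.9%). In isolation 2 became 1 with DESeq2 (1.96% of all genes) and 1 with TMM between alleles (3.48%), scg3 in both. For castle building minus isolation, the allelic count of 1 became 0 with DESeq2 (0.248% of all genes) and 0 with missing genes as 0 (0.0787%). It became 2 with castle building as 2 libraries (3.05%). For pit digging minus castle building, the allelic count of 0 became 1 (scg3) with the first castle building library alone (0.234% of all genes) or the second alone (0.248%). It also became 1 (scg3) with both as separate libraries (3.99%) or with TMM between alleles (0.292%). The summed count of 2 in that contrast was 1 with the M. conophoros allele alone (4.03% of all genes). For pit digging minus isolation, DESeq2 gave 1 for the allelic ratio (chgb, 0.0146% of all genes) and 1 for the sum (pcsk1, 1.87%). Castle building as 2 libraries gave 1 in castle building (ptprn), 5 and 4 for the sums against pit digging and isolation, where 38.7% and 39.9% of all genes passed, and 1 for the sum of pit digging minus isolation (2.47% of all genes). That setting treats near-identical libraries as replicates. With it 9.04% of all genes passed for the allelic ratio in castle building. For the allelic difference of pit digging minus castle building 3.99% did.

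Leaving out each pit digging or isolated library in turn gave 1 to 3 members over all samples, 2 to 3 in pit digging, 1 to 2 in isolation and 0 to 0 in castle building. For the allelic differences it gave 0 to 0 (pit digging minus castle building), 0 to 1 (castle building minus isolation) and 0 to 1 (pit digging minus isolation), and for the 3 summed contrasts 0 to 0. For the allelic ratios the share of all genes that passed also varied from fit to fit. The counts of members alone therefore cannot tell whether a change in the allelic calls was particular to the members. Fewer samples leave 1 residual degree of freedom in these fits. In the 3 summed contrasts no gene of the whole table passed in them, so the loss there is not particular to the members.

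With the replicate number as a block and castle building as 2 libraries, 1 member passed in castle building (ptprn), where 9.11% of all genes did. For the allelic ratio of pit digging minus castle building 2 passed (chgb and scg3, 3.55% of all genes). For that of pit digging minus isolation 1 did (chgb, 0.0584%). For sums of castle building against pit digging and isolation 5 and 4 passed, where 30.9% and 32.1% of all genes did. Over the genes listed in all libraries, same-numbered libraries of pit digging and isolation did not deviate together. Their correlation was -0.0955 for sums and -0.0325 for allelic ratios, so the block is no evidence of pairing. Genes listed in some libraries only, such as pomc, cga and pou1f1, did not enter these correlations. Depth limits ptprn (37 counts) and chgb (60 counts) in castle building.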

Other observations

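Of 71 peptide precursor genes looked for, 4 were listed in all libraries and 8 in some. Neuropeptide Y (npy) had 339 and 353 counts in pit digging replicates 1 and 2 and 58 and 327 in isolated replicates 1 and 2, and was not listed in castle building. The pituitary precursor pomc had a C. virginalis share of 40.3% in isolated replicate 2 (1841 counts) and of 47.8% in pit digging replicate 2 (919 counts). The glycoprotein hormone subunit cga had 48.6 and 46.9% in the same libraries.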
